A study of Oryza sativa Japonica Group and Oryza sativa Indica Group and Oryza sativa Indica Group x Oryza sativa Japonica Group with 9 samples.

Results

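This account follows the genes for the first step of starch synthesis and for the branching and trimming of starch in rice seedling shoots. The loci were chosen by locus ID: 2 small subunits of ADP-glucose pyrophosphorylase (AGPase), AGPS1 and AGPS2, 3 large subunits, AGPL1, AGPL2 and AGPL3, the branching enzymes BEI, BEIIa and BEIIb, and the debranching enzymes isoamylase (ISA1) and pullulanase (PUL). Of the 10 loci, 9 were found among the 55783 loci with values, and PUL (LOC_Os04g08270) was not analysed here. The names are those under which the loci were chosen; numbering of the AGPase large subunits differs between naming systems, so the locus IDs given below identify them. A RefSeq gene table places genes named AGPS2, ISA1 and Sbe1 (BEI) at a like position, which covers 3 of the 9 loci, and gives no such name for the other 6. The 9 loci lie on 8 chromosomes.

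AGPase joins glucose 1-phosphate and ATP into ADP-glucose, the glucose donor of starch synthesis, and is built of small, mainly catalytic subunits and large, mainly regulatory subunits. Starch synthases lengthen the glucan chains, branching enzymes add the branch points of amylopectin, and debranching enzymes trim misplaced branches so that granules can crystallise. Leaves store starch in chloroplasts by day and break it down at night, while the endosperm of the grain stores it for the next generation and uses a largely separate set of isoforms.

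Polyadenylated RNA was sequenced from shoots of 14-day-old seedlings in 3 groups with 3 libraries each: the cultivar C92 (japonica rice), the cultivar MH63 (indica rice) and the F1 hybrid of C92 and MH63. All were raised in water in a chamber at 28 °C under days of 16 h light (100 µmol m-2 s-1) and 8 h dark, and received no treatment that the labels name. The labels write the hybrid as C92×MH63 in one field and as MH63 x C92 in another, so the seed parent is not known. The replicates are called biological, but how plants were divided among them is not given, so each p-value rests on how far these libraries vary.

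Levels are FPKM, fragments per kilobase of transcript scaled to the mapped fragments of the library, and can therefore be compared between loci. FPKM summed to between 602005 and 623806 per library, and depth relative to C92 library 1, read from the most frequent ratio of low values, ranged from 0.955 to 1.25. The 6 leaf markers summed to 21670 to 24940 FPKM in every library, and the 7 endosperm markers (glutelins and seed transcription factors) summed to between 2.05 and 4.0 FPKM, with 1 of 7 reaching 1 FPKM in any library and 0 of 7 at 0 in all libraries. The 3 root markers summed to 36.7 to 54.9 FPKM in C92, 68.2 to 103 in MH63 and, in F1, 42.5 to 51.8. By limma at an adjusted p below 0.05, 2 of 3 root markers (LOC_Os03g01300 and LOC_Os02g37190) and 2 of 6 leaf markers (LOC_Os12g19470 and LOC_Os08g33820) were lower in C92 than in MH63. LOC_Os02g37190 was low, at 0.07, 0.0 and 0.52 FPKM in C92 and 2.55, 1.81 and 0.37 in MH63, and these ranges overlapped. It reached 1 FPKM, the limit for testing, in libraries of MH63 and F1 alone. In F1, 1 of 6 leaf markers was lower than in C92 and than the mid-parent (CAB2R, a light-harvesting protein). Against MH63, 1 of 6 was lower in F1 (LOC_Os08g33820). Of the root markers, 1 of 3 was higher in F1 than in C92 (Lsi1) and 1 of 3 was lower than in MH63 (LOC_Os03g01300). LOC_Os03g01300 was listed as Lsi2 and tied to that name by a like position alone, so its identity is uncertain. It stood at 33.22 to 96.72 FPKM and made up most of the root marker sums. Of all loci tested, 14.9% were called lower in C92 than in MH63. In F1, 13.7% were called lower and 10.6% higher than in C92. The shares called lower in F1 were 7.38% against MH63 and 5.58% against the mid-parent. The part of these markers in the results below was not tested. In whole shoots, fewer cells of a type and less RNA per cell cannot be told apart.

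The AGPase subunits were among the more abundant transcripts of the shoot, and BEIIb and ISA1, best known from endosperm, were low. By mean level over the 9 libraries, AGPS2 ranked 710 of 55783 loci (124 FPKM), AGPL3 841 (109 FPKM), AGPL1 1371 (74.4 FPKM) and AGPS1 1580 (66.5 FPKM). BEI ranked 3767 (31.8 FPKM) and BEIIa 4759 (25.8 FPKM). AGPL2, known in the grain as the large subunit of the cytosolic AGPase of endosperm, ranked 7002 (17.3 FPKM). ISA1 (1.82 FPKM) and BEIIb (1.29 FPKM) were near the lower limit used for testing, at ranks 18624 and 19853. Rice grains that lack ISA1 have the sugary phenotype, and those that lack BEIIb the amylose-extender phenotype.

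The order of mean levels was the same in the 3 groups, from AGPS2 through AGPL3, AGPL1, AGPS1, BEI, BEIIa, AGPL2 and ISA1 to BEIIb. In C92, AGPS2 and AGPL3 overlapped each other, AGPL3 overlapped AGPL1, AGPL1 overlapped AGPS1, and BEI overlapped BEIIa. In MH63, AGPS2 stood clear of AGPL3 and AGPL3 of AGPL1, while AGPL1 overlapped AGPS1 and BEIIa overlapped AGPL2. In F1, the overlapping neighbours were AGPS2 and AGPL3, AGPL1 and AGPS1, BEI and BEIIa, and ISA1 and BEIIb.

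**Figure D1:**
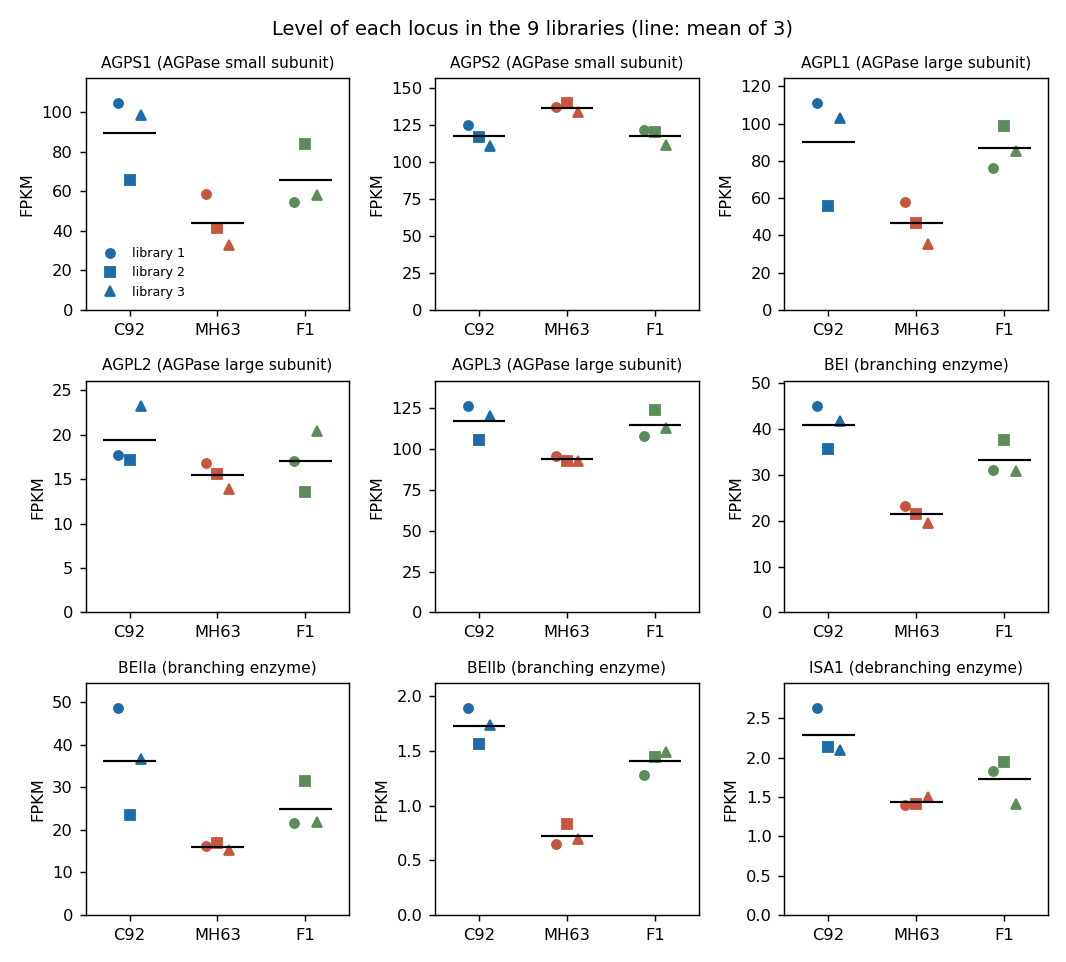
FPKM of the 9 loci (vertical axis, from 0) in the libraries of C92, MH63 and F1. Circles, squares and triangles are libraries 1, 2 and 3, which the labels do not pair across groups, and lines are group means. AGPS2 is the locus whose MH63 libraries lie above those of C92, whereas BEI, BEIIa, BEIIb and ISA1 lie lower in MH63 than in C92.

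The parents were compared to learn how far the cultivars differ. The synthesis genes of this set were mostly higher in C92: 7 of 9 were called higher in C92 and 0 lower, at an adjusted p below 0.05. These 7 were AGPS1, AGPL1, AGPL3, BEI, BEIIa, BEIIb and ISA1, of which BEIIb reached the limit for testing in C92 and F1 alone. Over all 21447 loci tested, 34.1% were called, 19.2% higher and 14.9% lower in C92, or 4119 and 3194 loci. After quantile normalization that balance turned, with 3516 higher and 3748 lower. At an unadjusted p below 0.05, 8 of 9 members passed, against 44.3% of all loci tested. The median log2 fold change was 0.66 over the 9 members and 0.03 over all loci tested. AGPS2 went the other way, with a higher mean in MH63, and did not pass the test. Each test was limma's moderated test on log2(FPKM + 1), a scale that understates changes of low loci, with Benjamini-Hochberg adjustment over all loci tested.

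Of the small subunits of AGPase, AGPS1 was called higher in C92 and AGPS2 was not called. AGPS1 (LOC_Os09g12660, chromosome 9) stood at 104.52, 65.79 and 98.75 FPKM in C92 libraries 1, 2 and 3, at 58.52, 41.41 and 32.70 in MH63, and at 54.78, 83.72 and 58.14 in F1. C92 and MH63 did not overlap, although C92 library 2 came close to MH63 library 1, and F1 overlapped both parents. C92 averaged 89.7 ± 20.9 FPKM against 44.2 ± 13.1 for MH63 (SD, n = 3), a log2 difference of 1.02 ± 0.25 (SE; limma adjusted p = 0.0117). AGPS2 (LOC_Os08g25734, chromosome 8), whose locus is known to give both a plastid and a cytosolic form of the subunit, stood at 125.35, 116.77 and 110.63 FPKM in C92, at 137.00, 139.81 and 133.84 in MH63, and at 121.41, 120.05 and 111.42 in F1. All MH63 libraries lay above all libraries of C92 and F1. C92 averaged 118 ± 7.39 FPKM against 137 ± 2.99 for MH63, a log2 difference of -0.22 ± 0.08 (SE; adjusted p = 0.0615), which missed the threshold. The deposited values give 1 number per locus, so the forms of AGPS2 could not be separated.

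Of the large subunits, AGPL1 and AGPL3 were called higher in C92 and AGPL2 was not called. AGPL1 (LOC_Os05g50380, chromosome 5) stood at 110.90, 55.76 and 103.06 FPKM in C92, at 57.96, 46.52 and 35.55 in MH63, and at 76.38, 98.75 and 85.12 in F1. C92 library 2 lay below MH63 library 1, so the parents overlapped, whereas all F1 libraries lay above all MH63 libraries. Between the parents the log2 difference was 0.90 ± 0.26 (SE; limma adjusted p = 0.0248), with C92 at 89.9 ± 29.8 FPKM against 46.7 ± 11.2 for MH63 on average (SD, n = 3). AGPL3 (LOC_Os03g52460, chromosome 3) stood at 126.59, 105.75 and 120.02 FPKM in C92, at 95.67, 92.90 and 92.55 in MH63, while F1 had 107.96, 123.69 and 112.84. The MH63 libraries lay close together and below all others. C92 averaged 117.5 ± 10.7 FPKM of AGPL3 against 93.7 ± 1.71 for MH63, a log2 difference of 0.32 ± 0.09 (SE; adjusted p = 0.0241). AGPL2 (LOC_Os01g44220, chromosome 1) stood at 17.77, 17.22 and 23.28 FPKM in C92, at 16.83, 15.56 and 13.90 in MH63, and at 17.11, 13.55 and 20.41 in F1. Its C92 libraries lay above its MH63 libraries by a narrow gap, F1 covered nearly the whole range, and the log2 difference of 0.31 ± 0.16 (SE; adjusted p = 0.172) was not called.

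The branching enzymes were all called higher in C92. BEI (LOC_Os06g51084, chromosome 6) stood at 45.08, 35.67 and 41.83 FPKM in C92, at 23.18, 21.45 and 19.58 in MH63, while F1 had 31.12, 37.52 and 30.79. The parents were well apart, and F1 lay between them with 1 library inside the C92 range. C92 averaged 40.9 ± 4.78 FPKM against 21.4 ± 1.8 for MH63 (SD, n = 3), a log2 difference of 0.90 ± 0.12 (SE; limma adjusted p = 0.000291). BEIIa (LOC_Os04g33460, chromosome 4), the isoform known from leaves and other tissues of the plant, stood at 48.61, 23.39 and 36.59 FPKM in C92, at 16.12, 16.82 and 15.25 in MH63, and at 21.63, 31.37 and 21.94 in F1. C92 varied widely and MH63 little, with no overlap between them. C92 averaged 36.2 ± 12.6 FPKM of BEIIa against 16.1 ± 0.787 for MH63, and its log2 difference of 1.07 ± 0.24 (SE; adjusted p = 0.00693) was the largest of the 9 on the log2(FPKM + 1) scale. BEIIb (LOC_Os02g32660, chromosome 2), known from endosperm, stood at 1.89, 1.56 and 1.74 FPKM in C92, at 0.65, 0.83 and 0.69 in MH63, and at 1.28, 1.44 and 1.49 in F1. Its 3 groups did not overlap, and F1 lay between the parents. C92 averaged 1.73 ± 0.165 FPKM of BEIIb against 0.723 ± 0.0945 for MH63, a log2 difference of 0.66 ± 0.10 (SE; adjusted p = 0.00095). BEIIb reached the limit for testing through C92 and F1 alone, since every MH63 library lay under it. The ratio of means was larger for BEIIb, at 2.39, than for BEIIa, at 2.25.

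The debranching enzyme ISA1 was also called higher in C92. ISA1 (LOC_Os08g40930, chromosome 8) stood at 2.63, 2.14 and 2.10 FPKM in C92, at 1.40, 1.41 and 1.5 in MH63, and at 1.83, 1.94 and 1.41 in F1. C92 lay above both other groups, and F1 overlapped MH63 through library 3. C92 averaged 2.29 ± 0.295 FPKM against 1.44 ± 0.0551 for MH63 (SD, n = 3), a log2 difference of 0.43 ± 0.12 (SE; limma adjusted p = 0.0183). Both BEIIb and ISA1 are low, and total read numbers are not given, so no counting error can be stated for them.

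At 2-fold or more, AGPS1 and BEIIa were called between the parents, 2 of 9 members, against 10.9% of all loci tested. Both lay close to that limit: the count was 0 without C92 library 1, and 1 (BEIIa) without C92 library 3, MH63 library 2 or MH63 library 3. It was 3 without C92 library 2 or MH63 library 1, where AGPL1 also passed. With a pseudocount of 0.1 it was 3 as well, and there BEIIb also passed. The parental libraries did not overlap for 8 of 9 members, all except AGPL1, against 48.0% of all loci tested. No member changed direction between the parents in any of the alternatives tried, which include 2 other scalings. AGPS1, BEI, BEIIa and BEIIb kept their call in every alternative in which they were tested, with adjusted p-values up to 0.047, 0.00218, 0.0281 and 0.0093. The calls of AGPL1, AGPL3 and ISA1 were lost in 5 of 18, 6 of 18 and 4 of 17 alternatives, with adjusted p-values up to 0.091, 0.0816 and 0.0734. The number called higher in C92 fell to 4 without C92 library 1 and to 4 without MH63 library 2. AGPS2 was called lower in C92 under median-ratio scaling (adjusted p = 0.0391) and without C92 library 1 (adjusted p = 0.0444), over a range of 0.0391 to 0.204.

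**Figure D2:**
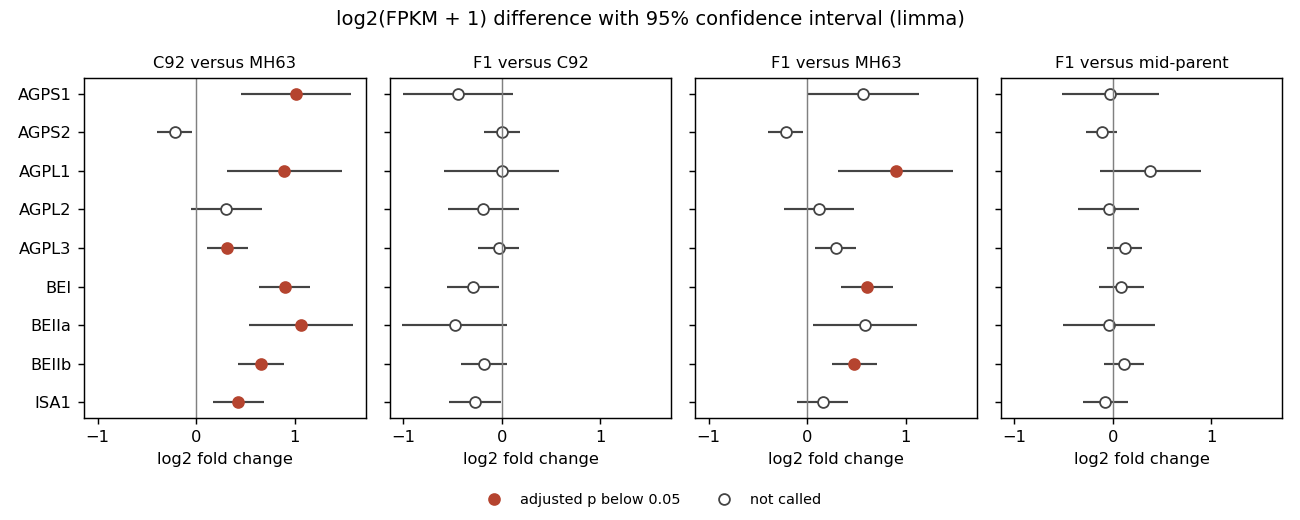
Difference of log2(FPKM + 1) for the 9 loci (rows) in 4 comparisons (panels), each with its 95% confidence interval from limma; filled points have an adjusted p below 0.05. Between the parents 7 loci are filled on the C92 side, against MH63 3 are filled on the F1 side, and F1 against C92 or the mid-parent has none.

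Within C92, libraries differed most for AGPS1, AGPL1 and BEIIa. C92 library 2 held 0.647 of the mean of C92 libraries 1 and 3 for AGPS1, 0.521 for AGPL1 and 0.549 for BEIIa, but 0.99 for AGPS2. It was the lowest C92 library for 7 of 9 members, against 37.2% of all loci tested. MH63 library 3 was the lowest of its group for 7 of 9 members, against 44.2%, and F1 library 2 the highest of its group for 6 of 9, against 40.2%. Among F1 libraries, AGPS1 and BEIIa were highest in library 2, while AGPL2 was lowest there. The coefficient of variation in C92 was 23.3% for AGPS1, 33.2% for AGPL1 and 34.9% for BEIIa, compared with 6.29% for AGPS2 and 9.07% for AGPL3.

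Because FPKM is scaled to length, levels of isoforms can be summed within an enzyme class. AGPS2 made up 54.5%, 64.0% and 52.8% of the small subunit transcripts in C92 libraries 1, 2 and 3, 70.1%, 77.2% and 80.4% in MH63, while F1 had 68.9%, 58.9% and 65.7%. The share was higher in every MH63 library than in any library of C92 or F1. The means were 57.1 ± 5.99% in C92, 75.9 ± 5.27% in MH63 and 64.5 ± 5.1% in F1 (SD, n = 3), and the difference of -18.8 percentage points between C92 and MH63 gave an exact permutation p of 0.1. That is the smallest p that 3 against 3 libraries allow (two-sided), and it became 0.275 when adjusted over 33 such tests of shares and sums.

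The summed small subunits overlapped between all groups, at 207 ± 23.7 FPKM (C92), 181 ± 14.5 (MH63) and 183 ± 18.1 (F1) (SD, n = 3). The summed large subunits stood at 255, 179 and 246 FPKM in C92, at 170.5, 155 and 142 in MH63, while F1 had 201, 236 and 218. All MH63 libraries were below all others, with the C92 minimum just above the MH63 maximum. The ratio of large to small subunit transcripts was 1.11, 0.979 and 1.18 in C92, 0.872, 0.855 and 0.853 in MH63, and 1.14, 1.16 and 1.29 in F1. It was thus below 1 in every MH63 library, and neither C92 nor F1 overlapped MH63 (exact permutation p = 0.1 for each, adjusted 0.275).

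Within the large subunits, AGPL3 was the main isoform in each group, with 52.5 ± 5.8% in C92, 60.4 ± 4.54% in MH63 and 52.6 ± 0.967% in F1 (SD, n = 3). AGPL1 followed with 38.8 ± 6.65%, 29.7 ± 4.49% and 39.6 ± 2.03%, and AGPL2 with 8.68 ± 1.49%, 9.9 ± 0.128% and 7.86 ± 1.88%. The AGPL1 share overlapped between the parents through C92 library 2, and all F1 libraries lay above MH63. The AGPL2 share was lower in every library of C92 and F1 than in MH63 (exact permutation p = 0.1 for each, adjusted 0.275).

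The branching enzymes summed to 95.6, 60.6 and 80.2 FPKM in C92, to 40.0, 39.1 and 35.5 in MH63, while F1 had 54.0, 70.3 and 54.2. The sum was lower in MH63 than in every other library, without a clear change in its make-up. BEI held 52.7 ± 5.86%, 56.0 ± 1.75% and 55.9 ± 2.26% of it in C92, MH63 and F1 (SD, n = 3), BEIIa 45.0 ± 6.16%, 42.1 ± 1.52% and 41.7 ± 2.52%, and BEIIb 2.24 ± 0.304%, 1.9 ± 0.251% and 2.39 ± 0.351%. The shares of all 3 branching enzymes overlapped between all groups. No share was formed for the debranching enzymes, since ISA1 was the only member of that class analysed. The further isoamylases listed below were not summed with ISA1.

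**Figure D3:**
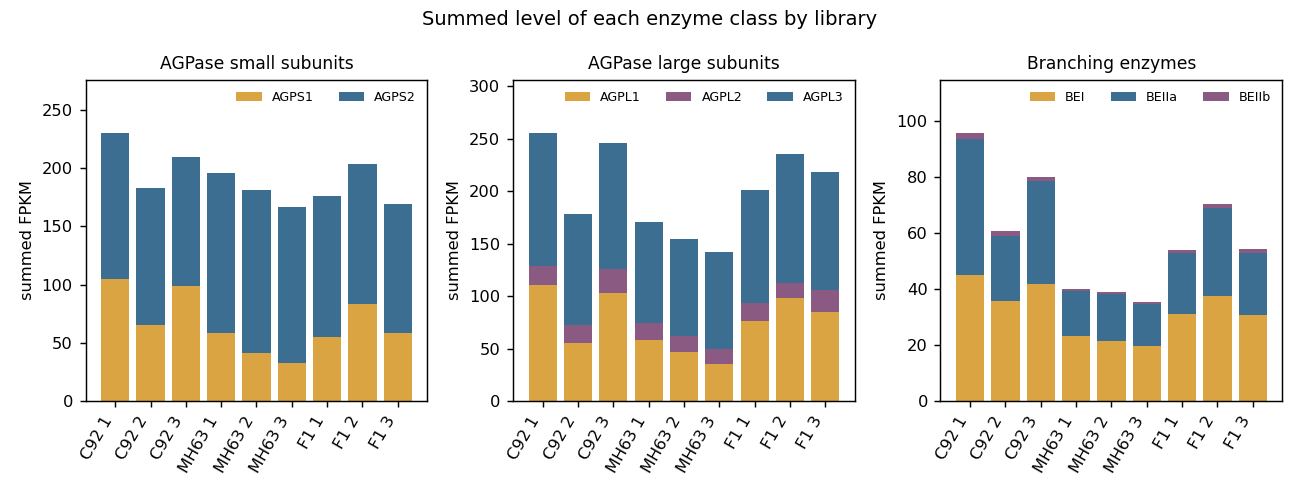
FPKM summed over the AGPase small subunits, the AGPase large subunits and the branching enzymes (panels) in each of the 9 libraries (bars), with isoforms stacked in colour. The MH63 bars are lowest for large subunits and branching enzymes, whereas small subunit bars overlap between groups and hold a larger AGPS2 part in MH63.

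The hybrid was compared with each parent and with the mid-parent, the mean of both parents; these comparisons share the F1 libraries. The F1 mean FPKM lay between the parental means for 9 of 9 members, against 45.6% of all loci tested. For AGPS2 this was a near tie, since the C92 and F1 means were both 117.6 FPKM when rounded. On the log2(FPKM + 1) scale AGPL1 in F1 lay just above C92, the higher parent, by 0.003. Against C92, 0 of 9 members were called in F1 by limma, and 2, BEI and ISA1, had an unadjusted p below 0.05, against 38.0% of all loci tested. At the adjusted threshold 24.3% of all loci were called, 10.6% higher and 13.7% lower in F1. At 2-fold or more, 0 members and 4.39% of all loci tested were called. The log2 fold changes ranged from -0.48 for BEIIa to 0.003 for AGPL1, which turned to -0.021 under median-ratio scaling. Their 95% confidence intervals reached from -1.01 to 0.05 for BEIIa, from -1.0 to 0.12 for AGPS1 and from -0.58 to 0.59 for AGPL1, so these 3 comparisons were imprecise. Without C92 library 2, BEIIa was called lower in F1, by a log2 fold change of -0.75 (limma adjusted p = 0.0306, over a range of 0.0306 to 0.428). The F1 and C92 libraries did not overlap for 2 of 9 members, BEIIb and ISA1, against 42.2% of all loci tested.

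Against MH63, 3 of 9 members were called, all higher in F1: AGPL1, BEI and BEIIb. Of all loci tested, 18.9% were called, 11.5% higher and 7.38% lower in F1. At 2-fold or more, 0 members and 5.79% of all loci tested were called. AGPL1 averaged 86.8 ± 11.3 FPKM in F1 (SD, n = 3), a log2 difference of 0.90 ± 0.26 from MH63 (SE; limma adjusted p = 0.0392), and its call was lost in 9 of 18 alternatives, with adjusted p-values up to 0.235. BEI averaged 33.1 ± 3.79 FPKM, a log2 difference of 0.61 ± 0.12 (SE; adjusted p = 0.00607), and lost its call in 1 of 18. BEIIb averaged 1.4 ± 0.11 FPKM, a log2 difference of 0.48 ± 0.10 (SE; adjusted p = 0.0108), and lost its call in 3 of 17. Its MH63 libraries all lay under the limit for testing. At an unadjusted p below 0.05, 7 of 9 members passed, against 32.5% of all loci tested. With F1 libraries 1 and 2 left out 0 members were called, after quantile normalization 1, and without C92 library 2 the count was 5. After quantile normalization the loci called over the whole table were 2037 higher and 2000 lower, against 2474 and 1583. The F1 and MH63 libraries did not overlap for 6 of 9 members, against 37.5% of all loci tested.

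The remaining members stood as follows against MH63. AGPS2 averaged 118 ± 5.42 FPKM in F1, at the C92 level, with a log2 difference of -0.22 ± 0.08 (SE; limma adjusted p = 0.0916). It was called lower in F1 under median-ratio scaling alone (adjusted p = 0.043, over a range of 0.043 to 0.216). AGPL3 averaged 115 ± 8.05 FPKM with a log2 difference of 0.29 ± 0.09 (SE; adjusted p = 0.0566) and was called without C92 library 2 (adjusted p = 0.0396, over a range of 0.0396 to 0.268). For AGPS1, AGPL2, BEIIa and ISA1 the adjusted p was 0.147, 0.65, 0.117 and 0.387. BEIIa, at 25.0 ± 5.54 FPKM in F1, was called without C92 library 2 (adjusted p = 0.0394) and in the fit of MH63 and F1 alone (adjusted p = 0.0407), over a range of 0.0394 to 0.492.

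Against the mid-parent, 0 of 9 members were called by limma and 0 had an unadjusted p below 0.05, against 27.5% of all loci tested. At the adjusted threshold 8.94% of all loci were called, 3.36% higher and 5.58% lower in F1. At 2-fold or more, 0 members and 1.05% of all loci tested were called. The log2 fold changes ran from -0.11 for AGPS2 to 0.38 for AGPL1, whose 95% confidence interval was -0.13 to 0.90. On a scale where 0 is the MH63 mean and 1 the C92 mean, F1 stood at 0.998 for AGPS2, 0.927 for AGPL1 and 0.89 for AGPL3. It stood at 0.675 for BEIIb, 0.603 for BEI, 0.469 for AGPS1, 0.443 for BEIIa, 0.399 for AGPL2 and 0.34 for ISA1. These positions varied between F1 libraries: AGPS1 stood at 0.232, 0.869 and 0.306 in libraries 1, 2 and 3, BEIIa at 0.276, 0.76 and 0.292, and AGPL2 at 0.421, -0.471 and 1.25. BEIIb was steadier, at 0.553, 0.712 and 0.762, and BEI at 0.499, 0.828 and 0.482. All 3 F1 libraries lay between the parental means for 4 of 9 members, AGPS1, BEI, BEIIa and BEIIb. The share over all loci tested was not computed for this, so whether that count is unusual is not known.

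Other loci of starch metabolism were set beside the members, from 4 lists that hold 43 IDs recalled from what is generally known of rice genes; of these, the gene table places a gene of the intended name at a like position for 12. In the list of 10 starch synthases, 8 were tested, 4 were higher and 0 lower in C92, with a median log2 fold change of 0.35. Of all loci tested, 19.2% were called higher and 14.9% lower in C92, with a median of 0.03. SSI (LOC_Os06g06560), a soluble starch synthase, averaged 20.7 ± 5.27 FPKM (C92), 5.78 ± 0.72 (MH63) and 15.3 ± 2.6 (F1) (SD, n = 3), with log2 fold changes of 1.65 between the parents (limma adjusted p = 0.000134) and 1.26 for F1 over MH63 (adjusted p = 0.00161). LOC_Os07g22930, of the same list, averaged 235 ± 48 FPKM in C92 and 109 ± 6.9 in MH63, a log2 fold change of 1.08 (adjusted p = 0.000457). Named outside the rule for named loci, after their values were seen, the granule-bound synthase of the endosperm, Wx (LOC_Os06g04200), and the endosperm soluble synthase ALK (LOC_Os06g12450) were under the limit for testing, at up to 0.69 and 0.3 FPKM.

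Of 7 loci listed for further AGPase subunits, isoamylases, phosphorylases and disproportionating enzymes, 6 were tested. Of these, 2 were higher and 0 lower in C92 (median log2 fold change 0.44). For this list and those that follow, the shares over all loci tested were 19.2% higher and 14.9% lower in C92 (median 0.03). DPE2 (LOC_Os07g46790), also named after its values were seen, which handles maltose from starch breakdown in the cytosol, averaged 91.3 ± 10.5 FPKM (C92), 63.7 ± 2.33 (MH63) and 87.3 ± 1.99 (F1) (SD, n = 3), with adjusted p-values of 0.00269 for C92 and 0.00938 for F1, each over MH63 by limma. Of 5 loci listed for plastid import and hexose phosphates, 4 were tested and 1 was higher in C92 (median 0.12). That locus, LOC_Os07g34006, averaged 35.6 ± 6.48 FPKM (C92), 8.32 ± 4.59 (MH63) and 15.1 ± 2.9 (F1), a log2 fold change of 2.07 between the parents (limma adjusted p = 0.000665). Of 21 starch breakdown loci, 14 were tested, 4 were higher and 1 lower in C92, with a median of -0.04. The locus lower in C92, LOC_Os01g13550, averaged 11.3 ± 0.852 FPKM in C92 and 26.5 ± 1.07 in MH63, a log2 fold change of -1.16 (adjusted p = 4.1e-05). LOC_Os07g35880 averaged 37.0 ± 9.52 FPKM (C92), 17.1 ± 3.9 (MH63) and 41.7 ± 5.67 (F1), a log2 fold change of 1.06 between the parents (adjusted p = 0.00416).

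**Figure D4:**
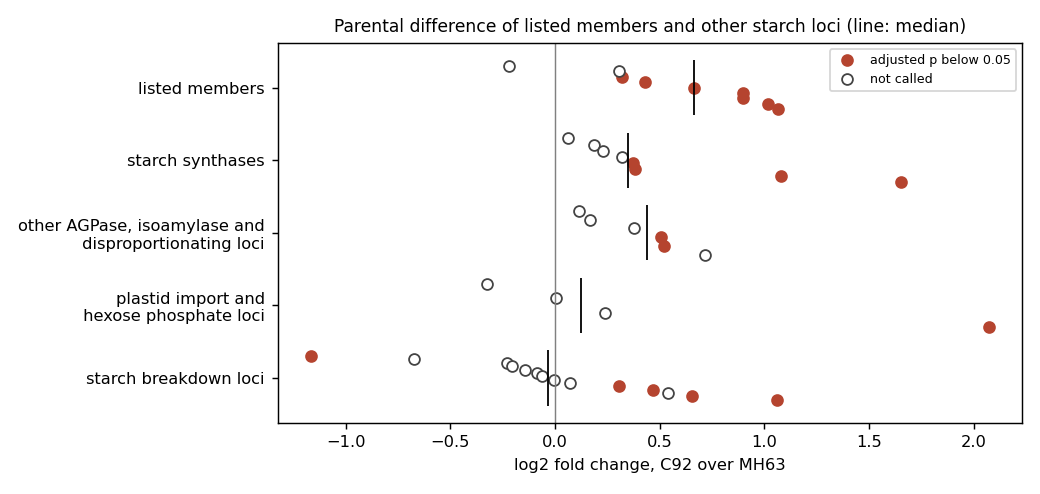
log2 fold change of C92 over MH63 on the log2(FPKM + 1) scale (horizontal axis) for the 9 members and the tested loci of the 4 lists (rows); filled points have an adjusted p below 0.05 and lines are medians. The medians lie at 0.66 for the members, 0.35 for starch synthases and -0.04 for starch breakdown loci.

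The loci whose profile was most like that of BEIIa, the member with the largest parental difference on the log2(FPKM + 1) scale, were sought among all loci tested. Likeness was the root-mean-square difference of log2(FPKM + 1) over the 9 libraries after each locus was centred on its own mean. With a pseudocount of 0.1, BEIIb had the larger parental difference, at 1.15 against 1.11 for BEIIa, so the choice of BEIIa rests on the pseudocount of 1. The closest were LOC_Os01g22220 at 0.15, LOC_Os02g38910 at 0.17 and LOC_Os07g25390 at 0.19, compared with a median of 0.55 over all loci tested. Of these, LOC_Os07g25390 was the most abundant, with 6.16 ± 1.31 FPKM (C92), 2.62 ± 0.286 (MH63) and 4.38 ± 0.857 (F1) (SD, n = 3). LOC_Os01g22220 was low, with means of 2.5 FPKM (C92), 0.5 (MH63) and 1.35 (F1). LOC_Os02g38910 was also low, with 2.05 (C92), 0.33 (MH63) and 1.16 (F1). Among the members, BEI was 11th closest to BEIIa, at 0.20, AGPS1 18th, at 0.21, and AGPL1 136th, at 0.27, whereas AGPS2 was 13501st.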

How the data were processed

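The submitters' processing notes name HISAT2 2.0.5, a read aligner. Build, annotation, strand setting and the source of the FPKM values are not given here. The authors deposited FPKM per locus and library, with 2 decimals and no read totals; how reads shared by related loci were counted is not given. FPKM is not a count, so no count model was used. Testing took the 21447 loci that reached 1 FPKM in 3 or more libraries and used limma 3.58.1 (R 4.3.3), with log2(FPKM + 1) as response, all 9 libraries in 1 fit, an intensity trend and no covariate. For the mid-parent, fitted parental levels were averaged on the linear scale and then logged, with a delta-method error. Shares of isoforms were compared by exact permutation. The fit was also run on simulated data with independent noise and with changes placed in C92 alone, at loci of higher level. That run placed no change at levels as low as those of BEIIb and ISA1, and its outcome is not given here. A locus was placed like a named gene when its ID number and that gene's start, each as a fraction of the chromosome, differed by at most 0.03; none of the IDs stands in the table (assembly ASM3414082v1). By rule, all members, list loci called at an absolute log2 fold change of at least 1 and the 3 loci nearest in profile to 1 member are named; DPE2, Wx and ALK were added after their values were seen. The members and lists were chosen with earlier results of these data known. Alternatives were another pseudocount, filters, scalings, variance priors, sample sets and a replicate block.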

Additional observations from a re-analysis of the deposited data

How the results depend on the processing

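With a mean FPKM of at least 5, BEIIb and ISA1 were not tested and fewer loci were called: 2440 higher and 2098 lower in C92 than MH63, 1434 higher and 1925 lower in F1 than C92, and 1347 and 942 in F1 against MH63. Without a filter, 367 loci were higher and 545 lower than the mid-parent; with the log-scale mid-parent 1496 were higher. With F1 libraries 1 and 2 left out, 1108 loci were higher and 860 lower in F1 than MH63, 178 were higher than the mid-parent, and 0 members were called against MH63. Median-ratio scaling called 1 member lower in C92 than MH63 and 1 lower in F1 than MH63 (AGPS2 in both). Quantile normalization left 1 member higher in F1 than MH63. The cause of these shifts was not tested.

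When each library was left out in turn, members called ranged from 4 to 7 higher and 0 to 1 lower in C92 than MH63, 0 to 1 lower in F1 than C92, and 2 to 5 higher in F1 than MH63. Loci called ranged from 2874 to 4228 higher and 2290 to 3187 lower in C92 than MH63. In F1 they ranged from 1304 to 2414 higher and 1706 to 3086 lower than in C92. Against MH63 they ranged from 1781 to 2385 higher and 872 to 1601 lower in F1. Against the mid-parent the ranges were 185 to 629 higher and 303 to 1166 lower.

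Directions turned only for members not called. Against C92, the log2 fold change of AGPS2 became -0.022, -0.032 and -0.075 under median-ratio scaling, quantile normalization and without F1 libraries 1 and 2, that of AGPL1 became -0.021, -0.015 and -0.016, and that of AGPL2 became 0.08 without those F1 libraries. Without them, ISA1 also became -0.016 against MH63, and AGPL2 0.225 and BEI -0.01 against the mid-parent. The log-scale mid-parent gave 0.064 for AGPS1 and 0.054 for BEIIa. Leaving out single libraries gave -0.041 to 0.048 for AGPS2, -0.306 to 0.183 for AGPL1 and -0.104 to 0.025 for AGPL3 against C92, and -0.014 to 0.265 for AGPL2 against MH63. Against the mid-parent it gave -0.21 to 0.091 for AGPS1, -0.174 to 0.104 for AGPL2, -0.003 to 0.136 for BEI, -0.234 to 0.114 for BEIIa and -0.131 to 0.013 for ISA1.

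The labels name no batch shared by libraries of equal replicate number. Deviations of same-numbered libraries correlated between -0.432 and 0.343, and above 0.1 in 4 of 9 pairs. Between F1 and C92 the same-numbered values were 0.343, 0.0397 and 0.212. Different-numbered libraries ranged from -0.413 to 0.415. Deviations within a group cancel by construction, so these correlations cannot show whether libraries were paired. With the replicate number as a block, 6 members were called higher in C92 than MH63 (AGPL3 missed, adjusted p = 0.0545) and 2 higher in F1 than MH63 (AGPL1 missed, adjusted p = 0.0617), and 470 loci were higher than the mid-parent. Over all member fold changes, alternatives kept direction and call in 572 cases, lost a call in 28, gained one in 7 and turned a direction in 33.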

Other observations

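A starch breakdown locus departed from both parents in the hybrid. LOC_Os07g35940 averaged 66.5 ± 7.46 FPKM (C92), 46.6 ± 13.3 (MH63) and 23.8 ± 6.62 (F1) (SD, n = 3). Its log2 fold change was -1.47 against C92 (limma adjusted p = 0.00256), -0.93 against MH63 (adjusted p = 0.0205) and -1.22 against the mid-parent (adjusted p = 0.0116). Of the 32 tested loci of the 4 starch lists, it alone was called against the mid-parent, where 8.94% of all loci tested were called. LOC_Os07g35880, its near neighbour by ID and a member of the same list, was higher in F1 than in MH63 by a log2 fold change of 1.25 (adjusted p = 0.00301). How reads shared by these loci were divided is not given. LOC_Os07g34006 of the import list was lower in F1 than in C92, with a log2 fold change of -1.18 (adjusted p = 0.0219). Of these 32 loci, 11 were higher and 1 lower in C92 than in MH63, against 19.2% and 14.9% of all loci tested. In F1, 1 was higher and 4 were lower than in C92, against 10.6% and 13.7%, and 7 were higher and 1 lower than in MH63, against 11.5% and 7.38%.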
